A study of Mus musculus with 12 samples.

Results

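Epithelial serine proteases and their inhibitors were followed in primary tumours of 4 mouse mammary carcinoma lines. The 8 genes are the membrane-bound proteases Tmprss11e, Tmprss11f, St14 (matriptase) and Prss8 (prostasin), the Kunitz-type inhibitors Spint1 and Spint2, and Wfdc2 and Slpi, small secreted proteins with the cysteine-rich WAP domain. They are 8 of 16185 genes on the array, and were read from the 95 of 228090 probesets annotated to 1 of these symbols alone, from 5 for Wfdc2 to 23 for St14. All 8 have at least 3 probesets, as do 15025 genes in all, and no probeset of theirs is shared with another symbol. The genes were chosen by their gene levels in the 4 lines on these same arrays, so their differences between lines are a description, with errors and without tests.

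Female BALB/c mice, 3 months old, received 67NR, 168FARN, 4T07 or 4T1 cells in a mammary fat pad. The primary tumours were taken when they averaged 1 to 2 cm. The injected mice numbered 8 for 67NR, 11 for 168FARN, 15 for 4T07 and 13 for 4T1, and 3 arrays represent each line. No treatment or gene alteration is named in the labels. The lines share 1 tumour of origin and are known to differ in spread: 67NR stays at the primary site, 168FARN reaches lymph nodes, 4T07 reaches the lung without visible nodules, and 4T1 completes metastasis. Each behaviour is represented by 1 line, so line and behaviour cannot be told apart. Nothing in the labels says that the arrays of a line came from separate animals, so errors and p-values measure the spread between these arrays.

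Serine proteases at the surface of epithelial cells are made as inactive zymogens and are activated by cleavage, often by each other. Matriptase and prostasin act in 1 such cascade in skin, gut and other epithelia, where they are needed for barrier function, and Spint1 and Spint2 hold them in check from the same membrane. Tmprss11e and Tmprss11f belong to the HAT/DESC group of transmembrane proteases, whose genes lie side by side. Slpi blocks neutrophil elastase and cathepsin G and is made by mucosal epithelium and by myeloid cells. Wfdc2, also called HE4, is a secreted epithelial protein used as a tumour marker in ovarian cancer.

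Of the 8 genes, 6 shared 1 pattern, lower in 67NR and 168FARN than in 4T07 and 4T1: Tmprss11e, St14, Prss8, Spint1, Spint2 and Wfdc2. Tmprss11f was high in 67NR alone, and Slpi was lowest in 67NR, intermediate in 168FARN and 4T1 and highest in 4T07. Levels are log2 signals, the median over a gene's probesets on each array. The 95th percentile of 335 olfactory receptor genes was 5.08, and a level under it counts as in the range of the background, and a fold from such a level is not measured. A signal depends on the probes, so levels are compared between lines within 1 gene and not between genes. In whole tumours, fewer cells of a type and less RNA per cell cannot be told apart.

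**Figure D1:**
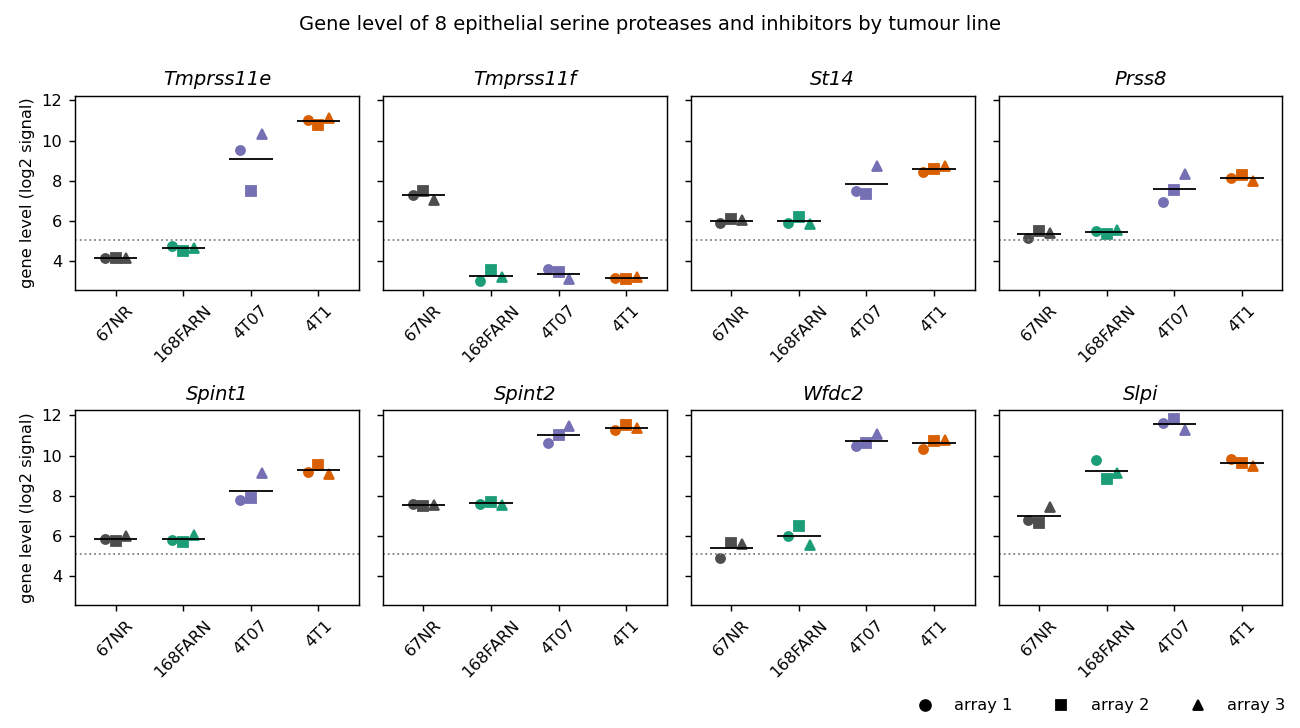
Gene level (log2 signal, vertical axis) of the 8 genes on each of the 12 arrays, by line, with marker shapes for the array number, a black bar at the mean and a dotted line at the background level of 5.08. In 6 genes the 4T07 and 4T1 arrays lie above all arrays of 67NR and 168FARN, Tmprss11f is above the dotted line in 67NR alone, and Slpi is highest in 4T07.

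The protease Tmprss11e spanned the widest range. Its level was 4.18, 4.19 and 4.15 on the arrays of 67NR and 4.77, 4.52 and 4.67 in 168FARN, all in the range of the background. In 4T07 it was 9.54, 7.48 and 10.31, and in 4T1 11.04, 10.77 and 11.13. No 2 lines overlapped, and the 4T07 arrays were spread far more than those of the other lines (SD 1.47, against 0.02 to 0.19). The difference from 67NR was 4.94 ± 0.49 (log2 difference ± SE of the limma contrast) in 4T07 and 6.81 ± 0.49 in 4T1. The difference of 4T1 from 4T07, 1.87 ± 0.49 or 3.66-fold, was 1.06 without 4T07 array 2. All 12 probesets of the gene were higher in 4T07 and in 4T1 than in 67NR, by 1.10 to 6.05 and by 2.52 to 7.83.

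Tmprss11f, a relative of Tmprss11e, went the other way. In 67NR its level was 7.32, 7.48 and 7.07, and on the 9 arrays of the other lines it lay between 3.02 and 3.60, in the range of the background. The difference from 67NR was -4.01 ± 0.18 in 168FARN, -3.90 ± 0.18 in 4T07 and -4.12 ± 0.18 in 4T1. The order of those 3 lines among themselves is not resolved, since their arrays overlap below the background level. All 11 probesets were lower in each of the 3 lines than in 67NR, by 1.92 or more.

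Tmprss11f and Tmprss11e are close neighbours on chromosome 5 in GRCm38.p6, with 1 protein-coding gene, Tmprss11b, between them. Tmprss11b, another protease of the same group and not among the 8 genes, was present in both 67NR and 168FARN: 6.69, 7.99 and 7.41 in 67NR, and 5.86, 5.32 and 7.82 in 168FARN. In 4T07 it was 3.70, 3.61 and 3.67 and in 4T1 3.69, 3.96 and 3.53, all in the range of the background. It fell against 67NR in 4T07 (-3.70 ± 0.49, limma adjusted p = 0.000104) and in 4T1 (-3.64 ± 0.49, adjusted p = 0.000126), and did not pass the test in 168FARN (-1.03 ± 0.49, adjusted p = 0.152). Each of the 3 consecutive genes therefore had its own set of lines above the background: Tmprss11f in 67NR, Tmprss11b in 67NR and 168FARN, and Tmprss11e in 4T07 and 4T1. The next genes on either side did not share these patterns. Tmprss11g had line means of 3.05 to 3.52 and Tmprss11d of 2.93 to 4.02, all in the range of the background, while Ythdc1, a reader of RNA methylation that follows Tmprss11e, had line means of 8.86 to 9.51. Whether probes of these related genes bind each other's transcripts was not tested.

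**Figure D2:**
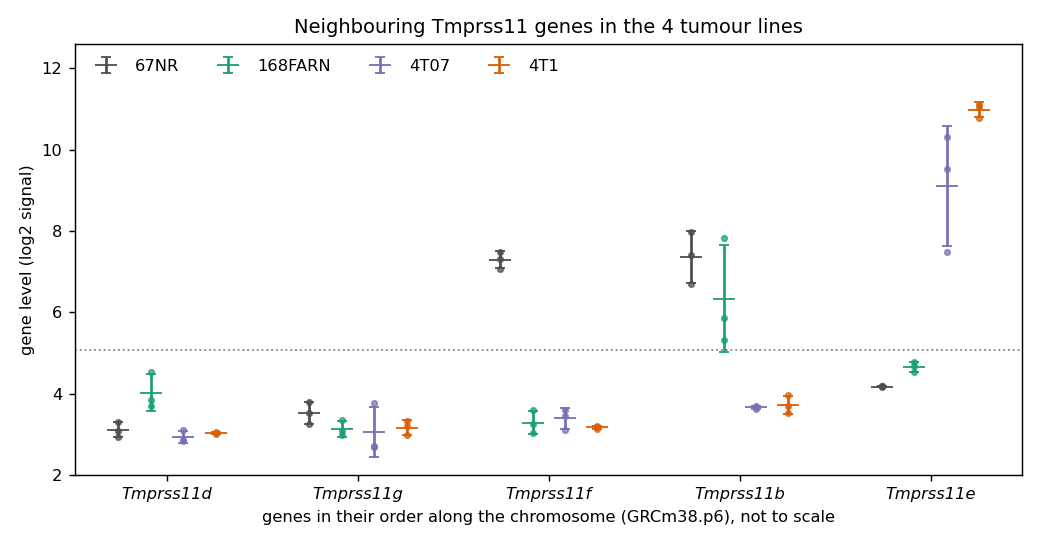
Gene level (log2 signal) of 5 Tmprss11 genes measured on the array, placed in their order along the chromosome and not to scale, with points for arrays, dashes and bars for the mean ± SD of 3 arrays, and a dotted line at the background level. Tmprss11f, Tmprss11b and Tmprss11e, which follow each other, are above the background in different lines.

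Matriptase and prostasin, the central pair of the cascade, were at the same low level in 67NR and 168FARN and higher in the other lines. The level of St14 was 5.88, 6.09 and 6.04 in 67NR and 5.92, 6.22 and 5.88 in 168FARN, against 7.49, 7.34 and 8.72 in 4T07 and 8.43, 8.60 and 8.75 in 4T1. That is a difference from 67NR of 1.85 ± 0.28 (3.60-fold) in 4T07 and 2.59 ± 0.28 (6.01-fold) in 4T1, and of -0.00 ± 0.28 in 168FARN. Array 3 of 4T07 reached the 4T1 range and the other 4T07 arrays did not, so the arrays of these lines overlap. Prss8 was 5.17, 5.51 and 5.40 in 67NR, 5.51, 5.36 and 5.54 in 168FARN, 6.95, 7.55 and 8.34 in 4T07, and 8.13, 8.29 and 8.01 in 4T1. Its difference from 67NR was 2.25 ± 0.26 (4.76-fold) in 4T07 and 2.78 ± 0.26 (6.87-fold) in 4T1, and again array 3 of 4T07 lay above the 4T1 arrays while the other 4T07 arrays lay below them. The line means of both genes in 67NR and 168FARN lie within 1 of the background level.

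The membrane inhibitors of both proteases followed the same order of lines. For Spint1, whose product HAI-1 binds active matriptase, the level was 5.83, 5.74 and 5.98 in 67NR, 5.80, 5.71 and 6.03 in 168FARN, 7.78, 7.87 and 9.13 in 4T07 and 9.17, 9.52 and 9.10 in 4T1. The difference from 67NR was 2.41 ± 0.29 (5.31-fold) in 4T07 and 3.41 ± 0.29 (10.6-fold) in 4T1. As for St14 and Prss8, the Spint1 means in 67NR and 168FARN, 5.85 in both, lie within 1 of the background level. For Spint2, whose product is HAI-2, it was 7.61, 7.48 and 7.55 in 67NR, 7.60, 7.69 and 7.55 in 168FARN, 10.64, 11.03 and 11.46 in 4T07 and 11.28, 11.52 and 11.36 in 4T1. The difference from 67NR was 3.50 ± 0.18 (11.3-fold) in 4T07 and 3.84 ± 0.18 (14.3-fold) in 4T1. In both inhibitors 67NR and 168FARN overlap, and so do 4T07 and 4T1.

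The secreted WAP-domain proteins had a pattern each. Wfdc2 was 4.91, 5.67 and 5.61 in 67NR and 5.98, 6.51 and 5.57 in 168FARN, against 10.48, 10.60 and 11.08 in 4T07 and 10.33, 10.71 and 10.76 in 4T1. Its difference from 67NR was 5.32 ± 0.27 (40.0-fold) in 4T07 and 5.21 ± 0.27 (36.9-fold) in 4T1, both from a level close to the background. The 4T07 and 4T1 arrays overlapped. All 5 probesets of Wfdc2 differed from 67NR by 4.57 to 5.83 in 4T07 and by 4.30 to 5.68 in 4T1, and their median correlation with each other over the 12 arrays, 0.990, was the highest of the 8 genes.

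Slpi was the 1 gene of the 8 that was at least 1 above its 67NR level in all 3 other lines, and it stood higher in 4T07 than in 4T1. Its level was 6.81, 6.65 and 7.46 in 67NR, 9.78, 8.82 and 9.14 in 168FARN, 11.60, 11.80 and 11.29 in 4T07 and 9.84, 9.62 and 9.49 in 4T1. Against 67NR the difference was 2.28 ± 0.26 (4.85-fold) in 168FARN, 4.59 ± 0.26 (24.1-fold) in 4T07 and 2.68 ± 0.26 (6.39-fold) in 4T1. The arrays of 168FARN and 4T1 overlapped, and 4T07 lay apart from both, 1.91 ± 0.26 above 4T1 and 2.31 ± 0.26 above 168FARN. The sizes depend on the probesets: 4 of the 6 differed by 4.43 to 4.89 between 4T07 and 67NR, and the remaining 2 by 1.37 and 1.57. With the mean of the probesets in place of the median, the difference of 4T07 from 67NR was 3.56 and that of 4T1 from 4T07 was -1.26.

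For 5 of the 8 genes a promoter entry was found in RefSeq's table for GRCm38.p6, and the sequences are shown because Spint1, Spint2 and Wfdc2 had 1 pattern over the lines while Slpi and Tmprss11f each had another. No entry was found for Tmprss11e, St14 and Prss8, which had the pattern of Spint1, Spint2 and Wfdc2. Printed 5′ to 3′ on the gene's strand are the 250 bases before the start, or for Spint2 the 168 of them that lie outside the annotated gene. They lie at chr2:119237110-119237359 (+) for Spint1, chr7:29282060-29282227 (-) for Spint2, chr2:164562465-164562714 (+) for Wfdc2, the first of 2 entries, chr2:164356508-164356757 (-) for Slpi and chr5:86632425-86632674 (-) for Tmprss11f. Capitals mark matches to the motifs named after the sequences, a match on the opposite strand being shown as its reverse complement.
Spint1: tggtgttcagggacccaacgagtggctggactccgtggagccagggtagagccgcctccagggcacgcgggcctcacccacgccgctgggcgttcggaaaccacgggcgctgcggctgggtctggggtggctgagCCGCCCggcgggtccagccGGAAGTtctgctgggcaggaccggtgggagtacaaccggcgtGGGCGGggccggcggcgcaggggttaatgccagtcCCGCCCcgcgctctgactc
Spint2: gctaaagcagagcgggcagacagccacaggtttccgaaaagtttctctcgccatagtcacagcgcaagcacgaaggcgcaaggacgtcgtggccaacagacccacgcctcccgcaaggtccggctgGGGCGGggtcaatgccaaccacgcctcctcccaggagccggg
Wfdc2: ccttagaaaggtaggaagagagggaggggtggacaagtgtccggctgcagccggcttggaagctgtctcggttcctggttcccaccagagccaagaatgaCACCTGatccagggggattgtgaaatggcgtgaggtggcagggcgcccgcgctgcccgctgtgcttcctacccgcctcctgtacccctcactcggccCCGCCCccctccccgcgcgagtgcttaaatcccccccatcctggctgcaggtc
Slpi: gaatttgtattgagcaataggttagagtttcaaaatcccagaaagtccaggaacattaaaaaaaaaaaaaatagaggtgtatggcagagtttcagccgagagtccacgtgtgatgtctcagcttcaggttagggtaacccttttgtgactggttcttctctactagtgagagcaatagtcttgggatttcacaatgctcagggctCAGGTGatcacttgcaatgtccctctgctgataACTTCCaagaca
Tmprss11f: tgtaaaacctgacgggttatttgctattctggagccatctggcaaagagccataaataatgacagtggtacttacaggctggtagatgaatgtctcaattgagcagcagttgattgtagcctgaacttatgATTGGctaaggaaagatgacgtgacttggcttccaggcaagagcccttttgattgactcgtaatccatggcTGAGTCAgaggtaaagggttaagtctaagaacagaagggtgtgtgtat

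The printed parts of Spint1, Spint2 and Wfdc2 were rich in G and C (72.8%, 64.3% and 64.8%, against a median of 52.0% over the 250 bases of 27025 promoters), and those of Slpi (42.0%) and Tmprss11f (43.6%) were not. Tmprss11e, St14 and Prss8 could not be included, and whether G and C content goes with the pattern over the lines was not tested. Both strands of the 250 bases were searched for 7 motifs. The GC box GGGCGG was in Spint1, Spint2 and Wfdc2 and in 32.9% of all promoters. CACCTG, an E-box bound by Snail and Zeb factors, was in Spint2 (in the part not printed), Wfdc2 and Slpi and in 17.1% of all. The ETS-type motif GGAAGT was in Spint1 and Slpi and in 20.0% of all. The AP-1 motif TGACTCA was in Tmprss11f and in 4.43% of all. The motif CCAAT was in Tmprss11f and in 34.5% of all. The TATA box TATAAA, present in 13.0% of all, and the grainyhead motif AACCGGTT, present in 0.122%, were in none of the 5 windows. These are matches of letters in a short window and no evidence of binding.

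Probesets of 1 gene went together in most cases. Against 67NR, all probesets of Tmprss11e, Prss8, Spint2, Wfdc2 and Slpi were higher in both 4T07 and 4T1. For Spint1, 14 of 15 were higher in 4T07 and 15 in 4T1, by up to 5.52, and 13 of them differed by at least 1 in each line. For St14, 20 of 23 were higher in 4T07 and 22 in 4T1. The least responsive St14 probesets included 1 with a high signal in every line (10.19, 9.97, 9.86 and 10.20 in 67NR, 168FARN, 4T07 and 4T1) and 1 with a low signal in every line (5.83, 5.19, 5.43 and 5.57). Which exons these probesets cover was not analysed here.

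**Figure D3:**
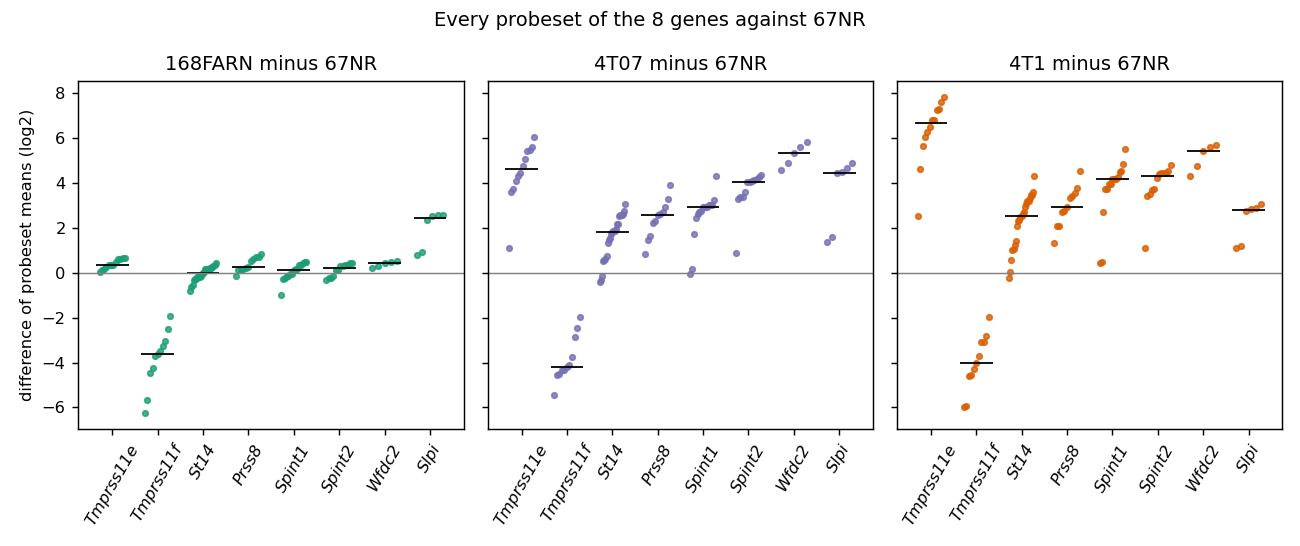
Difference from 67NR (log2) of every probeset of the 8 genes in 168FARN, 4T07 and 4T1, with 1 point per probeset, sorted within a gene, and a black bar at the median. Most probesets of a gene lie on 1 side of 0 in 4T07 and 4T1, with a few near 0 in St14 and Spint1 and 2 low ones in Slpi.

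Counted by size alone, 1 member was higher and 1 lower by at least 1 in 168FARN than in 67NR, Slpi and Tmprss11f, where 5.17% of all genes were higher and 3.41% lower by that much. In 4T07, 7 were higher and 1 lower (5.66% and 4.15% of all genes), and in 4T1 also 7 and 1 (4.73% and 4.69%). Against 168FARN, 7 were higher in 4T07 (5.35%) and 6 in 4T1 (5.07%), with 0 lower in either (5.48% and 7.01%). Between 4T1 and 4T07, Tmprss11e and Spint1 were higher in 4T1 (0.466%) and Slpi was lower (1.66%), with Spint1 at 1.00 ± 0.29 just inside that limit and St14 at 0.74 ± 0.28 the nearest outside it. This last count was 2 to 4 when single arrays were left out. The genes were chosen for these differences, the comparisons share arrays, and the shares of all genes serve as background only.

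In 4T07, the array with the highest mean of epithelial markers was also the highest for most of the 8 genes. Array 3 of 4T07 was the highest of the line for 6 of the 8 genes, by 1.23 over array 1 for St14, 1.39 for Prss8 and 1.36 for Spint1, where the median range of all genes within the line was 0.48. The mean level of 11 measured epithelial markers, among them Cdh1, Epcam and Krt18, was 8.33, 7.87 and 9.36 on the 4T07 arrays, 8.71 to 8.99 in 4T1, 6.59 to 6.71 in 168FARN and 5.76 to 6.35 in 67NR. At the low end the orders differed: array 2 of 4T07 had the lowest marker mean and the lowest Tmprss11e and St14, but array 1 the lowest Prss8, Spint1, Spint2 and Wfdc2. In 4T1, array 3 had the highest marker mean. It had the highest Tmprss11e, St14 and Wfdc2 of its line but the lowest Prss8 (8.01), Spint1 (9.10) and Slpi (9.49). Of these markers 9 rose in 4T07 and 10 in 4T1 against 67NR, at 11% and 9.38% of all genes called higher by limma. In 168FARN 2 rose and 1 fell, at 13.5% and 11.2% of all genes, and Esrp1 and Grhl2 were in the range of the background there. The 2 that rose in 168FARN were the keratin genes Krt8 (by 4.84, adjusted p = 1.31e-07) and Krt19 (by 1.07, adjusted p = 0.0429), and the median over the 11 was 0.33 there, 2.03 in 4T07 and 2.29 in 4T1. Most markers were lower in 168FARN than in 4T07, such as Krt18 (7.22 ± 0.20 against 11.67 ± 0.75, SD, n = 3) and Cdh1 (6.59 ± 0.14 against 8.64 ± 0.60). In this comparison 8 of the 11 were called higher in 4T07, beside 11.4% of all genes. Without 4T07 array 3 the difference of 4T07 from 67NR was 1.41 for St14, 1.89 for Prss8, 1.97 for Spint1 and 3.29 for Spint2. The part of epithelial cell content in these differences was not tested.

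Other cell types also moved with the lines. The mean of 11 neutrophil markers was 8.58 to 8.89 in 4T07, 7.93 to 8.18 in 4T1, 6.15 to 6.97 in 168FARN and 5.84 to 6.80 in 67NR, with 168FARN and 67NR overlapping. Slpi, which myeloid cells can make, had the same order of line means. So did Wfdc2, with 4T07 overlapping 4T1 and 168FARN overlapping 67NR, so the order is not particular to Slpi. On every 168FARN array 1 marker, Ngp, was in the range of the background. Against 67NR, 1 of the 11 rose in 168FARN, 10 in 4T07 and 7 in 4T1, where 13.5%, 11% and 9.38% of all genes were called higher. Within lines the order of arrays differed between these markers and Slpi: the array with the highest neutrophil mean had the highest Slpi in 67NR and 168FARN, the lowest in 4T07 and the middle one in 4T1. The mean of 5 milk genes was 5.35, 6.91 and 7.38 on the 4T07 arrays and 3.95 to 5.10 elsewhere, with the casein gene Csn2 at 7.06, 8.44 and 9.44 in 4T07. Of the 5, 3 were called higher in 4T07 than in 67NR, beside 11% of all genes. Another casein gene, Csn3, was as high in 67NR (6.48) as in 4T07 (6.26, limma adjusted p = 0.749). With 4T07 array 1 as the only array of its line, an alternative chosen after seeing the data, the difference of 4T07 from 67NR was 5.08 for Wfdc2, 4.62 for Slpi and 1.59 for Prss8. Of 9 keratinocyte markers, 1 rose in 4T07 and 2 in 4T1 against 67NR, and 1 fell in 168FARN. Of all genes, 11% and 9.38% were called higher in 4T07 and 4T1, and 11.2% lower in 168FARN. The counts for 4T07 and 168FARN were thus near the shares of all genes. The basal keratin Krt14 rose from 6.72 in 67NR to 8.72 in both 4T07 and 4T1 (limma adjusted p = 0.0027 and 0.00279) and was at 6.89 in 168FARN, while Ivl and Dsg3 were in the range of the background on every array. The mean of the 9 was 4.96 to 5.51 in 67NR, 5.10 to 5.30 in 168FARN, 5.38 to 6.16 in 4T07 and 5.46 to 5.82 in 4T1. The mean of 8 fibroblast markers was 8.56 to 9.10 in 67NR, 10.47 to 10.84 in 168FARN, 9.47 to 10.08 in 4T07 and 9.54 to 9.85 in 4T1. By the test, 6 of them were higher than in 67NR in 168FARN, 6 in 4T07 and 4 in 4T1, beside 13.5%, 11% and 9.38% of all genes. The mean of 8 macrophage markers was 10.57 to 10.67 in 67NR and 9.82 to 10.35 in the other lines. Of these, 4 fell in 168FARN, 3 in 4T07 and 2 in 4T1, where 11.2%, 12.7% and 13% of all genes were called lower. Muscle markers were high on arrays 2 and 3 of 168FARN (8.22 and 9.21, against 5.41 to 6.31 elsewhere), and with 168FARN array 1 alone in its line, also chosen after seeing the data, the differences from 67NR were -4.27 for Tmprss11f and 2.81 for Slpi. The part of these cells in the results was not tested.

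**Figure D4:**
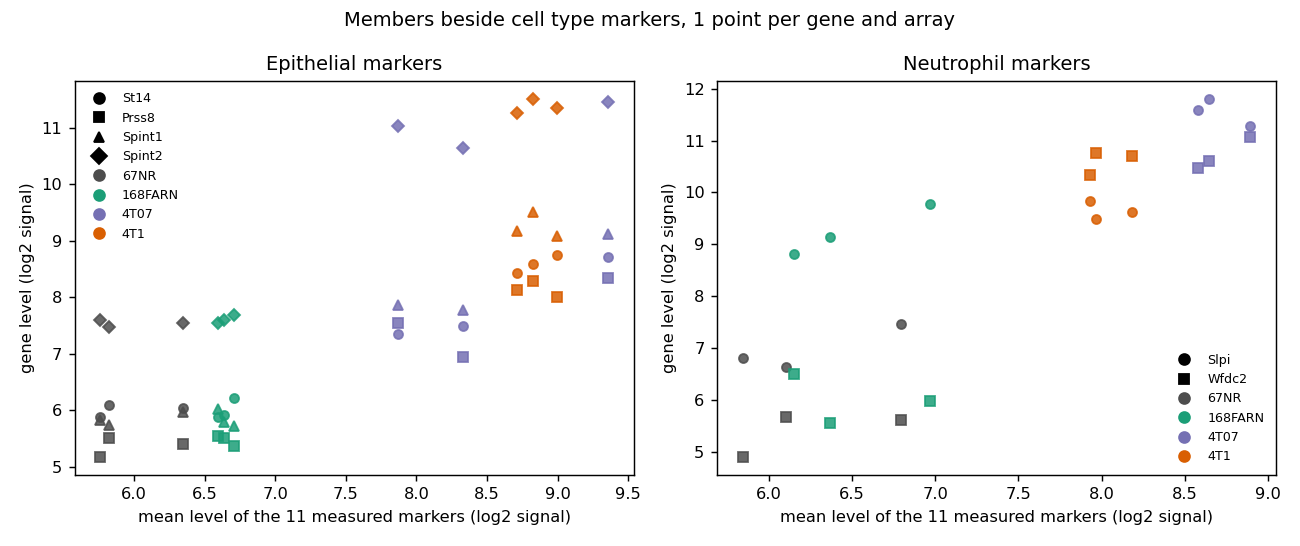
Gene level of St14, Prss8, Spint1 and Spint2 against the mean of 11 epithelial markers (left) and of Slpi and Wfdc2 against the mean of 11 neutrophil markers (right), both in log2 signal, with 1 point per gene and array. The 4T07 array with the highest epithelial mean, 9.36, also has the highest level of the 4 genes in its line, and 168FARN has Slpi at 8.82 to 9.78 beside neutrophil means of 6.15 to 6.97.

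Genes that act with these proteases were tested from 5 lists: other transmembrane proteases, secreted or anchored proteases, other inhibitors, substrates and receptors, and epithelial transcription factors. Of 66 genes listed, 54 were measured, and 22 of them (40.7%) differed among the 4 lines by limma's F-test, against 42% of all genes. They were 3 of 12 transmembrane proteases, 2 of 9 other proteases, 6 of 12 inhibitors, 5 of 11 substrates and receptors and 6 of 10 transcription factors. The share of the lists that differed was thus near that of all genes. All adjusted p-values are limma's, over the 15025 genes.

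In 4T07, 11 of the 54 rose and 3 fell against 67NR (11% and 12.7% of all genes called), and in 4T1 10 rose and 3 fell (9.38% and 13%). The same 4 genes led the rises in both lines. Serpine2, a serpin that inhibits prostasin and other proteases, was 6.95, 6.81 and 6.47 in 67NR, 11.20, 11.41 and 11.17 in 4T07 and 10.86, 11.31 and 10.86 in 4T1 (22.9-fold, adjusted p = 5.61e-08, and 19.3-fold, adjusted p = 7.91e-08). Prss22, a tryptase-like protease of epithelia, rose by 2.23 ± 0.22 (adjusted p = 1.03e-05) and 2.88 ± 0.22 (adjusted p = 1.06e-06). F2rl1, the receptor PAR2, which trypsin-like proteases switch on by cleavage, rose from 4.79 ± 0.86 (SD, n = 3), in the range of the background, to 7.16 ± 0.56 in 4T07 and 7.94 ± 0.18 in 4T1 (adjusted p = 0.000375 and 3.69e-05). Epcam, an adhesion protein that matriptase can cleave, rose by 4.09 ± 0.51 (adjusted p = 6.69e-05) and 4.63 ± 0.51 (adjusted p = 2.27e-05). The other falls in 4T07 beside Tmprss11b were small: Serpinb6a (-0.52, adjusted p = 0.0188) and Klk10 (-0.50, adjusted p = 0.04). The Serpinb6a call was lost without 67NR array 1 or 2 or 4T07 array 1 or 2 (adjusted p = 0.0575 to 0.0643), and the Klk10 call without any 1 array of 67NR, 4T07 array 1 or 3, or 4T1 array 1 (0.0536 to 0.105). With the mean of the probesets Klk10 differed by -0.10 (adjusted p = 0.629), and with only the probesets above the 25th percentile of all probesets by -0.11 (adjusted p = 0.65). In 4T1, the transcription factor Klf4 fell by 1.57 (adjusted p = 1.29e-05) and Wfdc15a by 1.07 (adjusted p = 0.0192, lost at 0.092 without 67NR array 2 and at 0.0868 without 4T1 array 2). The Wfdc15a call was also lost with only the probesets above the 25th percentile (-1.23, adjusted p = 0.0952).

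In 168FARN, 4 of the 54 rose and 5 fell against 67NR, at 13.5% and 11.2% of all genes called. Mst1, which encodes macrophage-stimulating protein, a growth factor that matriptase and related proteases activate, was 8.56, 8.64 and 8.35 in 168FARN and 5.17, 5.69 and 5.91 in 67NR, and rose 7.59-fold (adjusted p = 3.79e-07). It was at 5.14 to 5.64 in 4T07 and 4T1. Hgf, the growth factor for the receptor Met, rose by 1.13 (adjusted p = 0.0263), a call lost without 67NR array 2 (0.0707) or 3 (0.102) or 168FARN array 1 (0.0553) or 2 (0.116). The rises of Mst1 and Hgf stood beside 6 of 8 fibroblast markers that rose in 168FARN, among them Lum by 4.65 (adjusted p = 3.75e-07) and Dcn by 3.03 (adjusted p = 1.83e-07), with a median over the 8 of 1.59 against 0.04 for all genes, and the part of fibroblasts in them was not tested. Tmprss11d rose by 0.91 (adjusted p = 0.00479) within the range of the background. Grhl1 rose by 0.84 (adjusted p = 0.00597), from 4.49 in 67NR, in the range of the background, to 5.32, with 168FARN array 3 at 4.98 still in that range. Prss22 fell by 1.35 (adjusted p = 0.0007), Klf5 by 1.21 (adjusted p = 0.000514) and Serpinb6a by 0.72 (adjusted p = 0.00295). Grhl2, a grainyhead factor that drives epithelial genes, fell by 1.86 to 4.19 ± 0.30, in the range of the background (adjusted p = 0.00718). With 168FARN array 1 alone in its line, chosen after seeing the data, the difference was -1.625 and the call was lost. In 67NR Grhl2 was at 6.05, and 4T07, at 6.43, did not pass the test against it (adjusted p = 0.609). In 4T1 it was at 7.70 (adjusted p = 0.0154, lost at 0.0528 without 67NR array 1 and at 0.0575 without 67NR array 3).

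**Figure D5:**
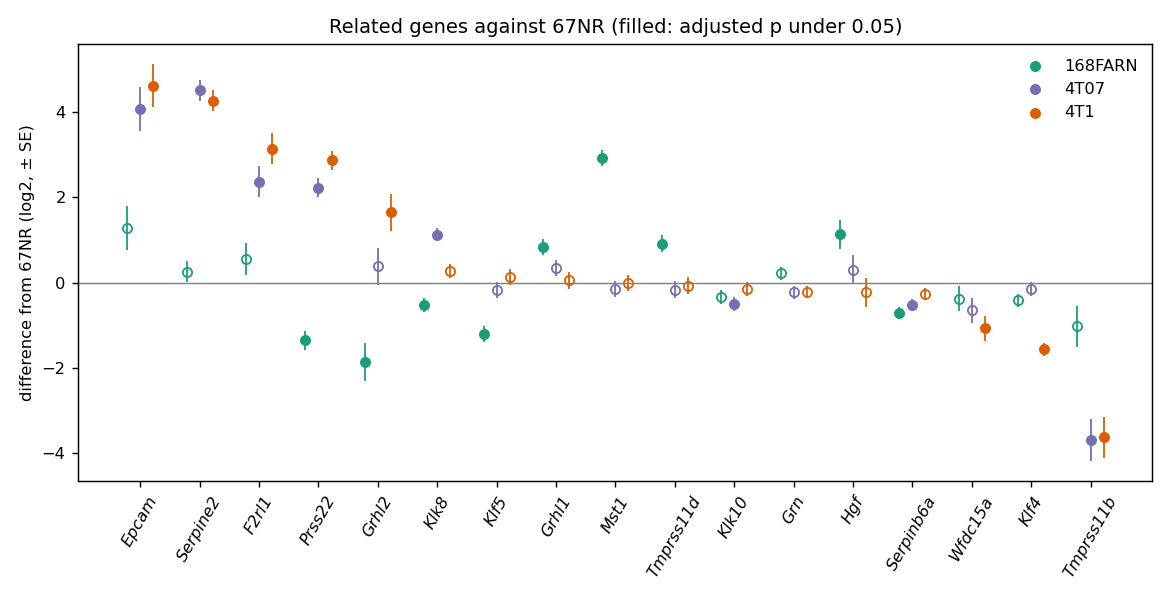
Difference from 67NR (log2, ± SE of the limma contrast) of 17 related genes named by a fixed rule, in 168FARN, 4T07 and 4T1, filled where the adjusted p is under 0.05. Serpine2, Prss22, F2rl1 and Epcam are higher in both 4T07 and 4T1, Mst1 rises in 168FARN alone of the 3 contrasts, and Tmprss11b is lowest in 4T07 and 4T1.

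Set against 168FARN, 9 of the 54 related genes rose and 4 fell in 4T07 (11.4% and 16.8% of all genes called), and 10 rose and 7 fell in 4T1 (11.9% and 19.3%). Prss22 was 3.59 ± 0.22 higher in 4T07 (adjusted p = 1.57e-07) and 4.23 ± 0.22 higher in 4T1 (adjusted p = 3.09e-08), and Serpine2 by 4.27 and 4.02 (adjusted p = 8.15e-08 and 9.95e-08). Grhl2 rose by 2.24 in 4T07 (adjusted p = 0.00189) and 3.51 in 4T1 (adjusted p = 5.29e-05), and Epcam by 2.81 and 3.35 (adjusted p = 0.00117 and 0.000273). With 168FARN array 1 alone in its line, the Grhl2 difference of 4T07 from 168FARN was 2.00 and the call was lost. Mst1 fell by 3.07 and 2.94 (adjusted p = 1.89e-07 and 2.23e-07) and Tmprss11b by 2.68 and 2.61 (adjusted p = 0.00119 and 0.00123). In 4T07 Tmprss11d (-1.09, adjusted p = 0.00127, within the range of the background) and Grn (-0.45, adjusted p = 0.0391) also fell. Grn is the progranulin gene, whose product Slpi shields from elastase. The Grn call was lost without any 1 array of 67NR or 168FARN, 4T07 array 1 or 3, or 4T1 array 1 (0.0502 to 0.121). In 4T1 Hgf (-1.36, adjusted p = 0.00787) and Klf4 (-1.15, adjusted p = 0.000144) fell. Between 4T1 and 4T07, Klf4 (-1.43, adjusted p = 0.000492) and the kallikrein Klk8 (-0.86, adjusted p = 0.0121) fell and 0 rose (1.82% and 0.552% of all genes). At an unadjusted limma p under 0.05, 5 were lower and 3 higher. The Klk8 call was lost without 4T07 array 2 (0.0696) or 4T1 array 1 (0.0779). It was also lost with only the probesets above the 25th percentile of all probesets (-0.54, adjusted p = 0.154). Without 4T07 array 3, 4 related genes were called.

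The genes most alike in pattern were found by Pearson's r of gene level over the 12 arrays, among 3236 genes whose line means spanned at least 1. The arrays fall into lines, so a high r mostly records a like order of lines. For Tmprss11e they were the collagen receptor Itga2 (r = 0.995), Perp, a desmosomal protein (0.989), and Misp (0.986). St14 and Spint1 shared Krtcap3 (0.989 and 0.993) and Lad1, a basement membrane protein (0.988 and 0.991), followed by Als2cl for St14 (0.988) and Spns2 for Spint1 (0.991). Prss8 was nearest to Elmo3 (0.993), Urah (0.988) and Ace (0.988), and Spint2 to the glycosyltransferase B3gnt3 (0.996), Echdc2 (0.996) and the aldolase Aldoc (0.995). For Wfdc2 they were Elovl7 (0.994), an enzyme of fatty acid elongation, Tns4 (0.991) and Rps6ka6 (0.989). Tmprss11f was nearest to Dock3 (0.998), Dach2 (0.990) and Rundc3a (0.989), with Dock3 at 6.01 in 67NR and 4.14 to 4.26 in the other lines. Slpi had the loosest matches, Efnb2 (0.967), Rin2 (0.965) and Flywch2 (0.954). Efnb2, an ephrin, had the same order of line means as Slpi, 7.27 in 67NR, 8.54 in 168FARN, 9.21 in 4T1 and 10.14 in 4T07.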

How the data were processed

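The authors' deposited table gives a log2 signal for each probeset; the scale was read from the values' range. The authors' summarization, background correction and normalization are not given in the sources used here. Per the labels' protocols, RNA was isolated with Trizol and biotin-labelled with a whole-transcript kit. Array medians lay between 7.21 and 7.57, and the values were used as deposited. Arrays have no read depth; their number limits the precision. All 12 columns were used.

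Probesets with 1 symbol (207232) were named through the array's annotation and RefSeq GRCm38.p6; 3882 with several symbols and 16976 with none were left out. A gene's level was the median of its probesets. The 15025 genes with at least 3 probesets were fitted in 1 model with limma 3.58.1 (lmFit, eBayes) in R 4.3.3 (data.table package, version 1.17.8), with Benjamini-Hochberg adjustment and a threshold of 0.05; the fit was tested on simulated data. Members, gene lists and rules were chosen with earlier results of these data known. Named beside the members were, per contrast, the 4 called related genes with the largest rise and the 4 with the largest fall, and the 3 genes most alike to each member; Tmprss11b, Tmprss11d, Tmprss11g and Ythdc1 also appear as neighbours. The replicate numbers did not pair the arrays.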

Additional observations from a re-analysis of the deposited data

How the results depend on the processing

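Of 954 differences of the 8 genes recomputed under alternatives, 926 moved by less than 1 SD, 28 by more, and 0 of the 677 that stood for differences of at least 1 changed sign. Many of the 954 could not move, since leaving out an array of a line outside a comparison leaves its difference as it was. Tmprss11e in 168FARN minus 67NR, for example, stayed at 0.484 without 4T07 array 2 or 3. The replicate block, a limit of 1 probeset per gene and a background filter could not move them either. The counts therefore overstate how stable the differences were. With probesets above the 25th percentile of all probesets, Tmprss11f had too few probesets and gave no value, so 1 member in place of 2 differed by at least 1 between 168FARN and 67NR. With 4T07 array 1 alone in its line, an alternative chosen after seeing the data, 5 members in place of 3 differed by at least 1 between 4T1 and 4T07, 14 related genes in place of 9 were called between 168FARN and 67NR, and 1 in place of 2 between 4T1 and 4T07. The last count was also 1 with probesets above the 25th percentile, and 1 to 4 when single arrays were left out. With the arrays' replicate number as a block, the related genes called were 10, 14, 14, 13, 19 and 2 in the 6 comparisons, in place of 9, 14, 13, 13, 17 and 2. Same-numbered arrays of different lines deviated from their line means with correlations of -0.086 to 0.191, and 3 of 18 were above 0.1. Of the 68 calls of related genes, 43 held under all 21 alternatives and 25 were lost under at least 1 of them. The other counts stayed within 1.5 times their value. The number of arrays and signals near the background limit what could be seen.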
